A study of Rattus norvegicus with 16 samples.

Results

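Livers of rats given molecular hydrogen were compared with livers of control rats, all of them fed the CDAA diet, which lacks choline and supplies its protein as defined L-amino acids. The comparison rests on 8 of the 16 arrays of the study, 4 per group, picked by the treatment in their labels and by no measured value. All rats were male F344, an inbred strain, with a stated age of 4 weeks, and were kept on their diet and treatment for 3 weeks. The labels do not say whether that age is at the start or the end. Hydrogen rats drank water holding 0.7 mM dissolved hydrogen and breathed air with 2% hydrogen. Control rats breathed plain air and drank the same kind of water after the hydrogen had been let out of it. Both groups therefore shared strain, sex, diet, and the source of the water, and water and air were changed together, so that their parts cannot be told apart. The other 8 arrays are the same treatments on basal chow (4 control, 4 hydrogen) and serve here to estimate the spread and to set the effect on the CDAA diet beside that on the normal diet. Total RNA of whole liver was measured on RG-230 PM array strips. The labels name each array as a replicate without saying that each is a separate rat, so the p-values measure the spread between these samples. The time of day at which livers were taken is not given in the sources used here.

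A diet without choline limits the synthesis of phosphatidylcholine, which hepatocytes need to export triglyceride in lipoproteins, and in rats the CDAA diet is used as a model of fatty liver with inflammation and fibrosis. Hydrogen gas is studied as a mild antioxidant. Much of the RNA rhythm of the liver comes from the circadian clock, a feedback loop in which BMAL1 pairs with CLOCK or NPAS2 on E-boxes and drives the period and cryptochrome genes, whose proteins shut that pair off. REV-ERB receptors repress and ROR receptors activate Bmal1, Npas2 and Nfil3 through ROR elements. The PAR bZIP factors DBP, TEF and HLF activate, and NFIL3 represses, genes with a D-box.

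With hydrogen, 4 of the 25 clock genes measured rose and 5 fell. The output factor Dbp rose 5.41-fold, Per3 2.65-fold and Per2 2.3-fold, while the activator Bmal1 fell by 1.29 on the log2 scale, a ratio of 2.44. Outside the clock, the steroid-inactivating enzyme Hsd17b2 rose 2.73-fold and the fatty acid-handling genes Acot1, Cpt1b and Crot rose 3.68-, 1.98- and 1.45-fold. Among genes that fell were the fatty acid synthase gene Fasn, the sterol sensor Insig2 and the choline kinase gene Chka. Not all of these calls were stable. When each of the 8 CDAA arrays was left out in turn, Per2, Acot1, Cpt1b and Fasn stayed called in 5, 3, 4 and 3 fits. Of the clock genes that fell, Npas2, Rora and Nfil3 stayed called in 2, 3 and 1. In the linear model fitted to all 16 arrays, 71 of 22634 probe sets tested passed an adjusted p of 0.05, which is 0.314%, with 40 higher (0.177%) and 31 lower (0.137%) in hydrogen livers. At an unadjusted p under 0.05 there were 2617 probe sets. With every gene represented by its brightest probe set, 43 of 11435 genes passed (0.376%), 22 higher (0.192%) and 21 lower (0.184%). The groups of 4 did not overlap in 40 of the 43, against 430 of all genes tested (3.76%). Of the 43, 12 had group means at least 2-fold apart. The other called probe sets were a second one of Insig2, 17 without a single gene symbol and further probe sets of 10 genes whose brightest probe set was not called.

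These counts depended strongly on single arrays, and each result is given with that in view. Control array 2 lay toward the hydrogen arrays: on the first principal component of the 8 arrays, which held 34.6% of the variance, it stood at 11.2 while the other control arrays stood between -18.9 and -14.8 and the hydrogen arrays between -7 and 30.1. It was used as labelled throughout, and its label could not be checked from the files. Control array 2 was also the control closest to the hydrogen mean in 27 of the 43 called genes, beside 29.8% of all genes. Without control array 2 the number of called genes was 184 and included all 43. Leaving out the control nearest the hydrogen arrays tends to widen the differences between groups. Passes without control array 2, here and below, are therefore given as values and not as separate support for a change. Without control array 4 it was 15, all of them among the 43, without control array 3 it was 18, and without control array 1 it was 24. Leaving out hydrogen arrays 1, 2, 3 or 4 gave 21, 26, 43 and 83 genes. Fitted on the 8 CDAA arrays alone, without the spread from the normal diet, 2 probe sets and 1 gene were called, the gene being Tmcc3. Called in every one of the 8 fits that each left out 1 CDAA array were 14 genes: Dbp, Hsd17b2, Per3, Crot and C8h11orf65, which rose, and Rprm, Bmal1, Lgalsl, Insig2, Chka, Tmcc3, Dipk2a, Syne1 and Cry1, which fell.

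**Figure D1:**
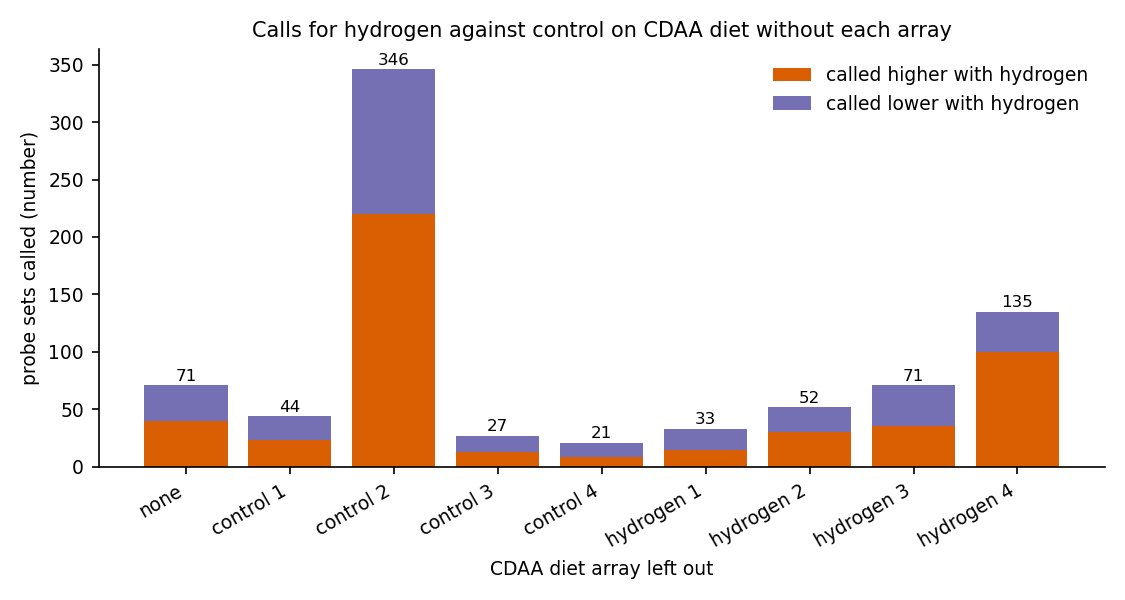
Number of probe sets called higher (orange) and lower (purple) with hydrogen on the CDAA diet, using all arrays (none) and after leaving out each of the 8 CDAA arrays in turn. The count is 71 with all arrays, 346 without control array 2 and 21 without control array 4.

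Clock genes were measured in 3 lists with 25 members on the array that passed the filter on low values. Of these 9 were called (36%), beside 0.376% of all genes. Without control array 2 there were 14 (9 higher, 5 lower), without any other single CDAA array from 4 to 8, the 4 being without control array 4 or hydrogen array 2, and with the 8 CDAA arrays alone 0. The clock lists were drawn up with results of these data known. As the time of day at which livers were taken is not given, it could not be checked whether it differed between groups. Its part in the differences of clock genes was not tested. Clock itself and Rorb are on the array but did not pass the filter.

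Short stretches upstream of the transcription start are shown for 4 of the 8 clock list genes whose window in RefSeq (rat genome build GRCr8, 250 bases before to 50 after the start) holds an element of the loop. Bmal1, Per2 and Tef are the 3 of these that were called, and Nr1d1 encodes the repressor of Bmal1. The others, Bhlhe40, Bhlhe41, Gsk3b and Por, were not called and are not shown. Elements searched on both strands were the E-box (CACGTG), the ROR element (TAGGTCA or TGGGTCA) and the D-box (TTANGTAA), and each is in capitals below with up to 30 bases on either side, in the direction of the gene. The windows are Bmal1 at chr1:176766282-176766327 on the plus strand, Per2 at chr9:99497148-99497215 on the minus strand, Tef at chr7:115206599-115206664 on the plus strand and Nr1d1 at chr10:84229610-84229675 on the minus strand.
Bmal1, ROR element: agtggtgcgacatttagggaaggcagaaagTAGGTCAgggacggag
Per2, D-box: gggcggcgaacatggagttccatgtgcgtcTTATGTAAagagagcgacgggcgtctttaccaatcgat
Tef, E-box: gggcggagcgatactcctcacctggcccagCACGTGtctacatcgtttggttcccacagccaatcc
Nr1d1, E-box: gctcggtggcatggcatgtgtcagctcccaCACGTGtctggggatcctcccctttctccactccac
The elements begin 16, 192, 198 and 191 bases before the start. Such letters are common: 6.42% of 33469 windows hold the E-box, 6.6% a ROR element and 2.24% the D-box. Of the 20 clock list genes with a window, 5 hold an E-box, 2 a ROR element and 1 a D-box. For 33 called genes with a window the numbers are 2, 2 and 1. For 18 genes of the stress list described further on they are 4, 3 and 0. A gene was counted if any of its windows held the element, so counts of genes and shares of windows are unlike measures. Dbp, Per3 and Nfil3 have none of them in this window. In all windows, letters of different elements overlapped in 43, counting the stress element described further on.

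All measured clock activators fell, with a median log2 difference of -1.13 beside 0.0075 for all genes. Bmal1, the partner of CLOCK, read 5.5, 4.87, 5.08 and 5.7 (log2 level, control arrays 1 to 4) and 3.73, 3.94, 4.13 and 4.2 (hydrogen arrays 1 to 4). Every hydrogen array was below every control array, and the difference was -1.29 ± 0.167 (SE, n = 4 per group, adjusted p = 0.00223). Npas2, which can take the place of CLOCK, read 7.69, 6.45, 7.48 and 7.52 in controls and 5.91, 6.08, 6.1 and 6.53 with hydrogen. Control array 2 was the low one and overlapped the hydrogen group. The difference of -1.13 ± 0.229 stood at the threshold (adjusted p = 0.04995), and the call was lost without control arrays 1, 3 or 4 (adjusted p = 0.119, 0.147 and 0.189) or hydrogen arrays 1, 2 or 3 (0.158, 0.109 and 0.0721). Rora, the nuclear receptor that activates Bmal1, read 5.75, 5.23, 5.78 and 5.94 against 5.15, 4.19, 5.07 and 4.62, without overlap. Its difference was -0.92 ± 0.186 (adjusted p = 0.04995), and the call was lost without control arrays 1, 3 or 4 (0.108, 0.144 and 0.195) or hydrogen arrays 2 or 4 (0.0965 and 0.0725). For Npas2, Rora and Nfil3, all at the threshold, the call also ended with no filter on low values, with median centring and with a trended robust fit (adjusted p from 0.0534 to 0.0736). A second, dimmer Rora probe set showed a difference of -0.07 (adjusted p = 0.817), and the mean of the Rora probe sets one of -0.49 (0.037).

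Of 11 clock repressors 2 rose and 1 fell, and 9 had a higher mean with hydrogen, beside 53.1% of all genes. Their median difference was 0.408. Per3 read 4.3, 5.42, 4.76 and 4.37 in controls and 6.36, 6.47, 5.81 and 5.84 with hydrogen, with control array 2 the highest control and still below every hydrogen array. The difference was 1.41 ± 0.215 (adjusted p = 0.00937). Per2, a core repressor of BMAL1, read 5.67, 5.34, 5.9 and 5.01 against 6.91, 7.15, 6.07 and 6.6, and control array 3 came close to hydrogen array 3. Its difference of 1.2 ± 0.218 passed (adjusted p = 0.0278), but not without control array 4 (0.114), hydrogen array 1 (0.096) or hydrogen array 2 (0.0726), and a second Per2 probe set read between 5.45 and 5.56 on all 8 arrays. The mean of the Per2 probe sets differed by 0.6 (adjusted p = 0.0395). Cry1 was the repressor that fell. It read 5.02, 5.14, 5.23 and 5.06 in controls and 4.69, 4.76, 4.39 and 4.49 with hydrogen, with no overlap and a difference of -0.53 ± 0.0766 (adjusted p = 0.00515). Its paralogue Cry2 read 5.96, 6.64, 6.22 and 6.12 against 6.82, 6.88, 6.86 and 6.44. That difference, 0.52, did not pass (adjusted p = 0.143) with all arrays and passed without control array 2 (0.0113).

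The REV-ERB genes Nr1d1 and Nr1d2, whose proteins repress Bmal1, had higher means with hydrogen but were not called. Nr1d1 read 5.47, 6.96, 6.47 and 6.1 in controls and 7.4, 7.35, 6.9 and 6.76 with hydrogen, so that control array 2 lay within the hydrogen range. The difference was 0.85 (adjusted p = 0.202, and 0.0266 without control array 2). For Nr1d2 it was 0.41 (adjusted p = 0.215). The remaining repressors, Bhlhe41, Per1, Bhlhe40, Csnk1d and Csnk1e, differed by 0.53, 0.28, 0.08, 0.01 and -0.05 and did not pass.

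Among 11 output genes Dbp and Tef rose and Nfil3 fell, with a median difference of 0.283 over the list. Dbp, whose transcript is strongly rhythmic in liver, read 5.06, 6.63, 5.89 and 5.24 in controls and 8.52, 8.42, 7.77 and 7.85 with hydrogen. The groups were more than 1 log2 unit apart at their closest, and the difference of 2.44 ± 0.301 (adjusted p = 0.00183) was the largest rise of all genes tested. Tef read 5.58, 6.17, 5.87 and 5.51 against 6.94, 7.05, 6.28 and 6.48. Its difference was 0.91 ± 0.165 (adjusted p = 0.0286), and it did not pass without control arrays 1, 3 or 4 (0.0805, 0.0715 and 0.123) or hydrogen arrays 1 or 2 (0.102 and 0.0726), nor as the mean of all Tef probe sets (0.63, adjusted p = 0.124). Nfil3, the repressor that competes for D-boxes, read 6.85, 6.05, 6.64 and 7.33 against 5.82, 5.84, 5.55 and 5.84. The hydrogen arrays lay close together below all controls, with a difference of -0.96 ± 0.194 (adjusted p = 0.04995). The call remained only without control array 2. Leaving out any other array gave adjusted p-values from 0.0586 to 0.143. Not called were Usp2 (0.81, adjusted p = 0.0621), Hlf (0.8, 0.244) and Por (0.42, 0.286). Differences between -0.01 and 0.28 were found for Alas1, Nampt, Tfrc, Gsk3b and Wee1.

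**Figure D2:**
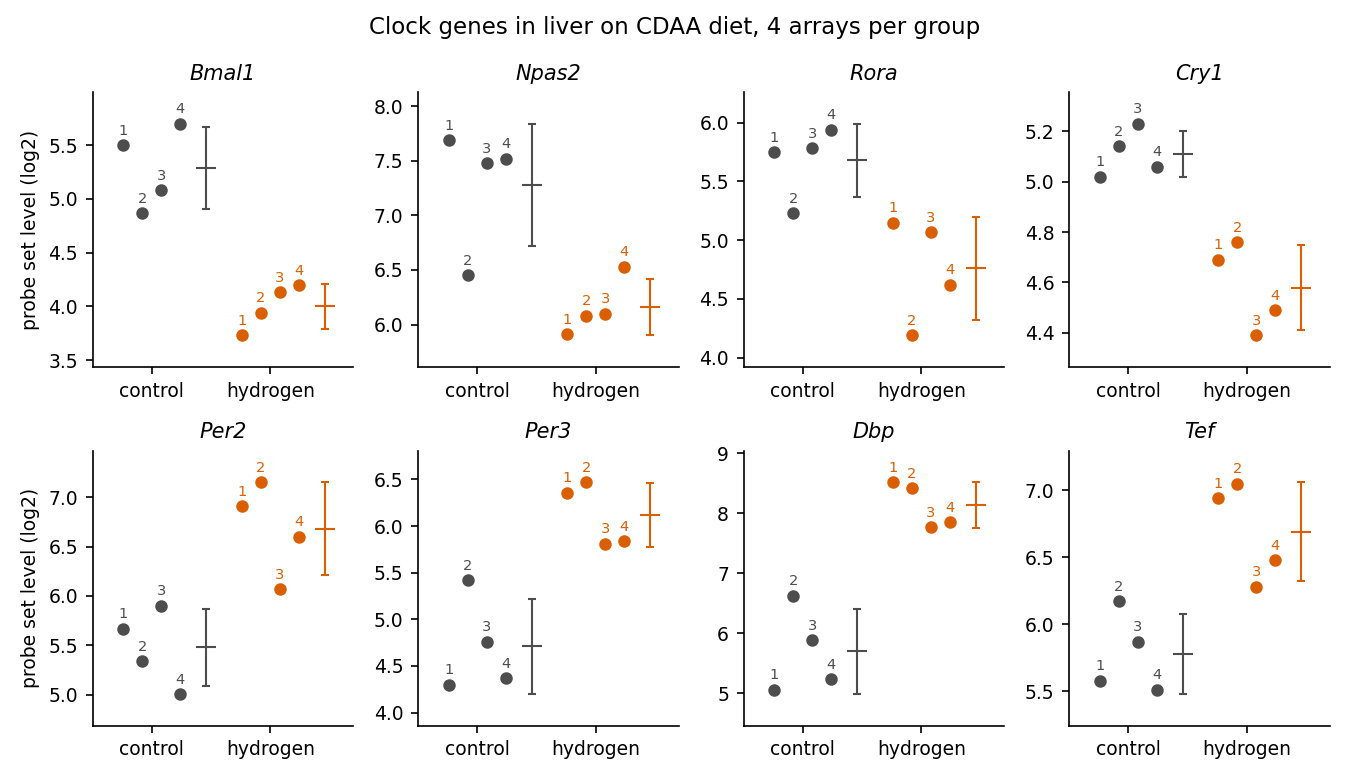
Level of 8 clock genes (log2, vertical axes) on each CDAA array, grey for control and orange for hydrogen, numbered by replicate, with group mean and SD beside the points. The activators and Cry1 are lower and Per2, Per3, Dbp and Tef higher with hydrogen. Control array 2 is the highest control for Dbp, Per3 and Tef and the lowest for Bmal1, Npas2 and Rora.

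Among genes of enzymes that burn or handle fatty acids, Crot, Cpt1b and Acot1 were called higher with hydrogen. Only Crot of these stayed called in every fit that left out 1 CDAA array. The list of omega-hydroxylases and peroxisomal oxidation genes had a higher mean with hydrogen in 16 of 16 measured members, beside 53.1% of all genes, and a median of 0.289, but only 1 member, Crot, was called. Crot, which loads medium-chain acyl groups from peroxisomes onto carnitine, read 10.07, 10.35, 9.83 and 10.24 in controls and 10.63, 10.62, 10.78 and 10.6 with hydrogen. The groups did not overlap and the difference was 0.54 ± 0.0864 (adjusted p = 0.0132). Ech1 and Ehhadh, enzymes of the same pathway, differed by 0.69 and 0.51 (adjusted p = 0.0806 and 0.162) and were called without control array 2 (0.00678 and 0.0266). In the list of mitochondrial beta-oxidation and ketogenesis, 19 of 21 members had a higher mean, the median was 0.095 and only Cpt1b passed. Cpt1b, a carnitine palmitoyltransferase best known from muscle, read 6.15, 5.8, 5.49 and 5.33 against 6.41, 7.11, 6.84 and 6.35, with a difference of 0.98 ± 0.182 (adjusted p = 0.03). Its call was lost without control arrays 3 or 4 (0.104 and 0.123) or hydrogen arrays 2 or 3 (0.0726 and 0.0595). The liver form, Cpt1a, differed by 0.44 (adjusted p = 0.262). Acaa2, the thiolase that ends the beta-oxidation cycle, was called through a dimmer probe set (0.91, adjusted p = 0.0154), while its brightest differed by 0.23 (0.207).

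Acot1, a cytosolic thioesterase that splits long-chain acyl-CoA, was the called gene with the widest spread. It read 7.78, 6.46, 6.07 and 5.99 in controls and 8.05, 8.24, 9.59 and 7.94 with hydrogen. Control array 1 nearly reached the hydrogen group, whose array 3 stood highest. The difference was 1.88 ± 0.367 (adjusted p = 0.0441), ranging from 1.5 to 2.28 as single arrays were left out. The call was lost without control arrays 3 or 4 (0.144 and 0.166) or hydrogen arrays 1, 2 or 3 (0.0758, 0.0726 and 0.0588), and with array weights, no filter or a trended robust fit (0.0544, 0.0588 and 0.0815). Of the 8 acyl-CoA thioesterases measured 7 had a higher mean with hydrogen, beside 53.1% of all genes. Their median was 0.136, and Acot2 differed by 0.42 (adjusted p = 0.319). On control water and air the CDAA diet itself went with a difference of 3.22 in Acot1 and 1.24 in Cpt1b against normal diet, a comparison that uses the same control CDAA arrays. The normal diet controls averaged 3.36 for Acot1, under the line of the filter on low values (3.68).

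Fasn, which encodes the enzyme that builds palmitate, fell. It read 9.55, 10.4, 10.17 and 10.23 in controls and 9.08, 8.53, 8.7 and 9.18 with hydrogen, with control array 1 the lowest control and no overlap. The difference was -1.22 ± 0.224 (adjusted p = 0.03), and the call was lost without control arrays 3 or 4 (0.0943 and 0.119) or hydrogen arrays 1, 2 or 3 (0.063, 0.0786 and 0.0595). No other gene of fatty acid synthesis and desaturation was called. A lower mean was found in 16 of 19, beside 46.4% of all genes, and the median was -0.205. Acly, the source of cytosolic acetyl-CoA, differed by -0.87 (adjusted p = 0.205) and Srebf1, the regulator of the pathway, by -0.35 (0.288). G0s2, an inhibitor of the triglyceride lipase ATGL, read 11.05, 10.95, 11.86 and 11.72 in controls and 10.39, 9.73, 11.03 and 9.99 with hydrogen, and the groups overlapped. That difference of -1.11 did not pass (adjusted p = 0.0865) with all arrays, and did without control array 2 (0.0248) or hydrogen array 3 (0.015). The lists of triglyceride synthesis and lipolysis (18 measured), lipid droplet proteins (9), fatty acid uptake (17) and apolipoproteins (20) held no called gene, with medians from -0.0275 to 0.06. Gpam, which starts triglyceride synthesis, was called through a further probe set (-0.6, adjusted p = 0.0142), while its brightest probe set differed by -0.12 (0.426).

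Insig2, which holds the SREBP escort protein in the endoplasmic reticulum when sterols are plentiful, fell on both of its probe sets. The brighter one read 10.37, 10.54, 10.23 and 10.89 in controls and 9.41, 8.99, 9.45 and 9.76 with hydrogen, a gap with no overlap and a difference of -1.1 ± 0.146 (adjusted p = 0.00259). The other differed by -1.05 (adjusted p = 0.0112). It was the only called gene of 23 in cholesterol synthesis and sterol sensing, a list with a median of -0.035 in which Insig1 differed by -0.67 (adjusted p = 0.305). Chka, choline kinase alpha, opens the route from choline to phosphatidylcholine and read 8.88, 8.38, 8.68 and 8.86 in controls and 7.47, 7.63, 7.51 and 7.91 with hydrogen. The difference was -1.07 ± 0.144 (adjusted p = 0.00264). Against normal diet the control CDAA livers, the same arrays, stood 0.82 higher in Chka. The other 24 measured genes of methionine, choline and phosphatidylcholine metabolism were not called, and the median of the whole list was -0.0025.

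Hsd17b2 oxidises active oestrogens and androgens to their weaker keto forms. It read 9.95, 11.08, 10.48 and 10.42 in controls and 12.13, 12.11, 11.7 and 11.79 with hydrogen. Control array 2 was again the highest control, yet lay below every hydrogen array. The difference was 1.45 ± 0.177 (adjusted p = 0.00183). No other of 18 genes of steroid and thyroid hormone metabolism was called. In bile acid synthesis and transport 20 of 26 genes had a higher mean, beside 53.1% of all genes. Hsd3b7, an early enzyme of the pathway, was called with 9.42, 9.59, 9.29 and 9.45 against 10.02, 9.9, 9.75 and 9.84. Its groups did not overlap and differed by 0.44 ± 0.0815 (adjusted p = 0.0311). That call was lost without control arrays 1, 3 or 4 (0.0786, 0.107 and 0.104) or hydrogen arrays 1 or 2 (0.106 and 0.0726). Cyp7a1, the rate-limiting enzyme of bile acid synthesis, read 6.94, 9.09, 8.03 and 9.42 against 9.94, 9.78, 10.36 and 9.21. The groups overlapped, and the difference of 1.45 did not pass (adjusted p = 0.186).

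**Figure D3:**
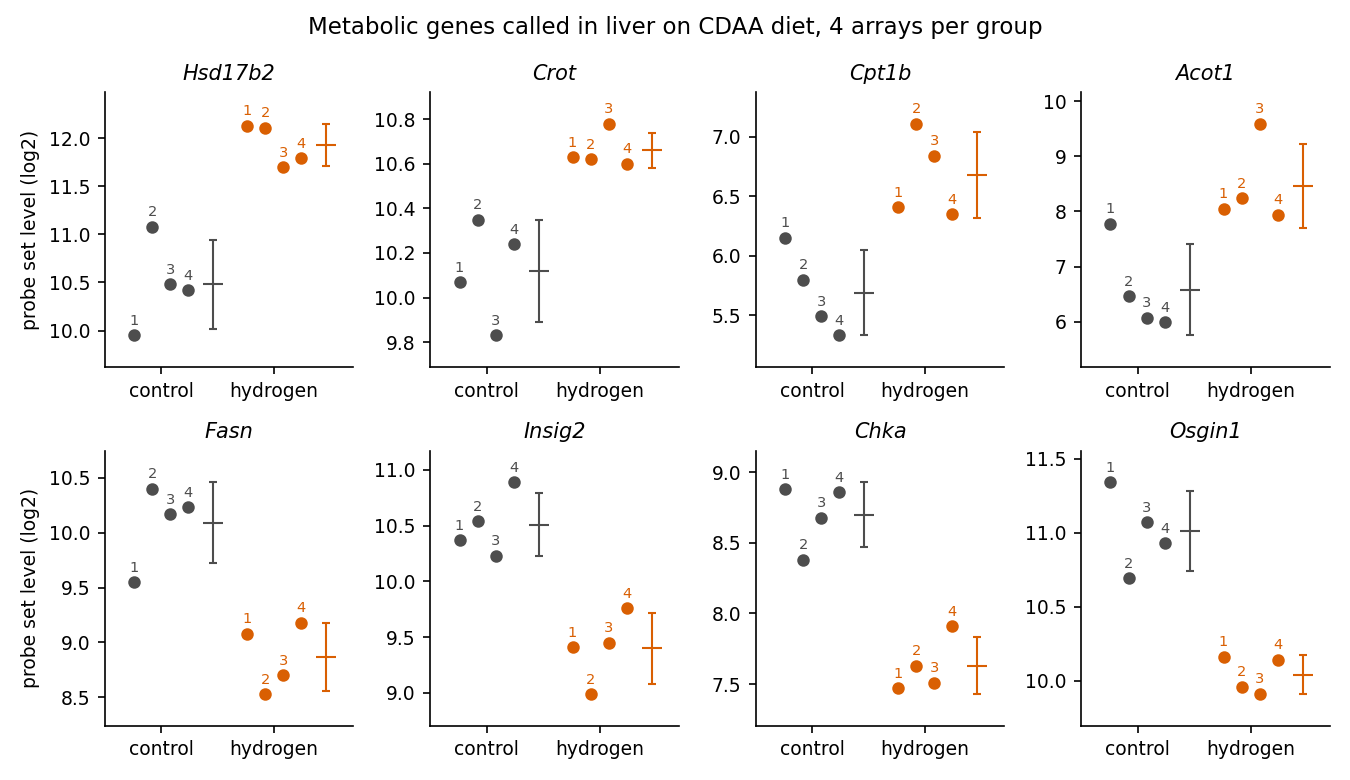
Level (log2, vertical axes) of 8 called metabolic and redox genes on each CDAA array, grey for control and orange for hydrogen, numbered by replicate, with group mean and SD. Hsd17b2, Crot, Cpt1b and Acot1 are higher and Fasn, Insig2, Chka and Osgin1 lower with hydrogen, with no overlap between groups.

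Antioxidant genes gave a single call. Of 24 targets of NRF2, the factor that switches on detoxifying enzymes, only Osgin1 was called, and it fell. Osgin1, an oxidative stress-induced growth inhibitor, read 11.34, 10.69, 11.07 and 10.93 in controls and 10.16, 9.96, 9.91 and 10.14 with hydrogen. The difference was -0.96 ± 0.167 (adjusted p = 0.0225), and the call was lost without control arrays 1, 3 or 4 (0.0706, 0.0726 and 0.0696) or hydrogen array 2 (0.052). Hmox1 and Nqo1, usual markers of NRF2, differed by 0.44 and 0.66 (adjusted p = 0.114 and 0.268), and the list median was 0.0762. The list as a whole leaned the other way from Osgin1: 16 of 24 had a higher mean, beside 53.1% of all genes. At an unadjusted p under 0.05, 7 were higher and 2 lower, beside 12.6% of all genes at that p in either direction. None of 21 peroxide and superoxide enzymes was called (median 0.0275), nor any of 16 glutathione S-transferases (median 0.03). In those lists 1 and 3 genes had an unadjusted p under 0.05, each with a higher mean. The smallest adjusted p-values there belonged to Glrx (0.37, adjusted p = 0.243) and Gstt2 (0.35, 0.141). The metallothionein Mt1 read 4.4, 5.29, 4.47 and 4.24 in controls and 5.9, 5.8, 5.67 and 5.56 with hydrogen, without overlap. Its difference of 1.13 did not pass (adjusted p = 0.0737) with all arrays and passed without control array 2 (0.00671). For Mt2A it was 1.69 (adjusted p = 0.205).

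Genes of the integrated stress response, which ATF4 switches on when amino acids run short or proteins misfold, gave 1 call. Of 19 measured, 16 had a lower mean, beside 46.4% of all genes, 11 had an unadjusted p under 0.05 with a lower mean, beside 12.6% of all genes at that p in either direction, and the median difference was -0.633. Only Sesn2 was called. It restrains mTORC1 and read 6.8, 6.42, 7.13 and 6.99 in controls and 6.19, 6.02, 6.47 and 5.85 with hydrogen, with overlap between control array 2 and hydrogen array 3. The difference was -0.7 ± 0.139 (adjusted p = 0.0474), and leaving out control arrays 1, 3 or 4 (0.0877, 0.144 and 0.18) or hydrogen arrays 1, 2 or 4 (0.106, 0.109 and 0.0687) ended the call, as did taking the mean of all Sesn2 probe sets (-0.41, 0.0847). Without control array 2 there were 4 called members of the list, all lower: Atf4, Chac1, Ddit4 and Sesn2. Without hydrogen array 3 there were 2, and without any other single CDAA array 0.

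The largest differences in this list were not called, and the genes described next were chosen after their values were seen. Chac1, which degrades glutathione, read 7.57, 6.88, 9.3 and 9.23 in controls and 6.21, 5.97, 6.42 and 6.27 with hydrogen. Every hydrogen array was lower, but the controls split into arrays 1 and 2 and arrays 3 and 4, and the difference of -2.03 ± 0.415 missed the threshold (adjusted p = 0.0506). Without control array 2 it passed (0.00188), and without other single arrays the adjusted p reached 0.189. Fgf21, a hormone secreted by stressed or fasted liver, read 9.1, 8.87, 10.99 and 11.02 against 7.28, 6.57, 9.1 and 5.85. Hydrogen array 3 equalled control array 1, and the difference of -2.79 ± 0.881, the largest fall of all genes tested, had an adjusted p of 0.227. Ddit4, an inhibitor of mTORC1, read 7.24, 6.13, 9.19 and 8.46 against 6.07, 5.77, 7.02 and 5.73 (-1.61, adjusted p = 0.245, and 0.0297 without control array 2). The pseudokinase gene Trib3 read 8.86, 8.03, 9.27 and 10.12 against 7.43, 6.85, 9.04 and 7.6 (-1.34, adjusted p = 0.376). For Atf3 and Atf4 the differences were -1.54 and -0.63 (adjusted p = 0.441 and 0.245). In these 4 genes control arrays 3 and 4 were the highest controls, as they were for Chac1 and Fgf21. On control water and air the CDAA diet went with higher levels of Fgf21, Chac1, Trib3 and Ddit4 by 4.04, 1.77, 2.44 and 2.35 against normal diet, from the same control arrays.

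**Figure D4:**
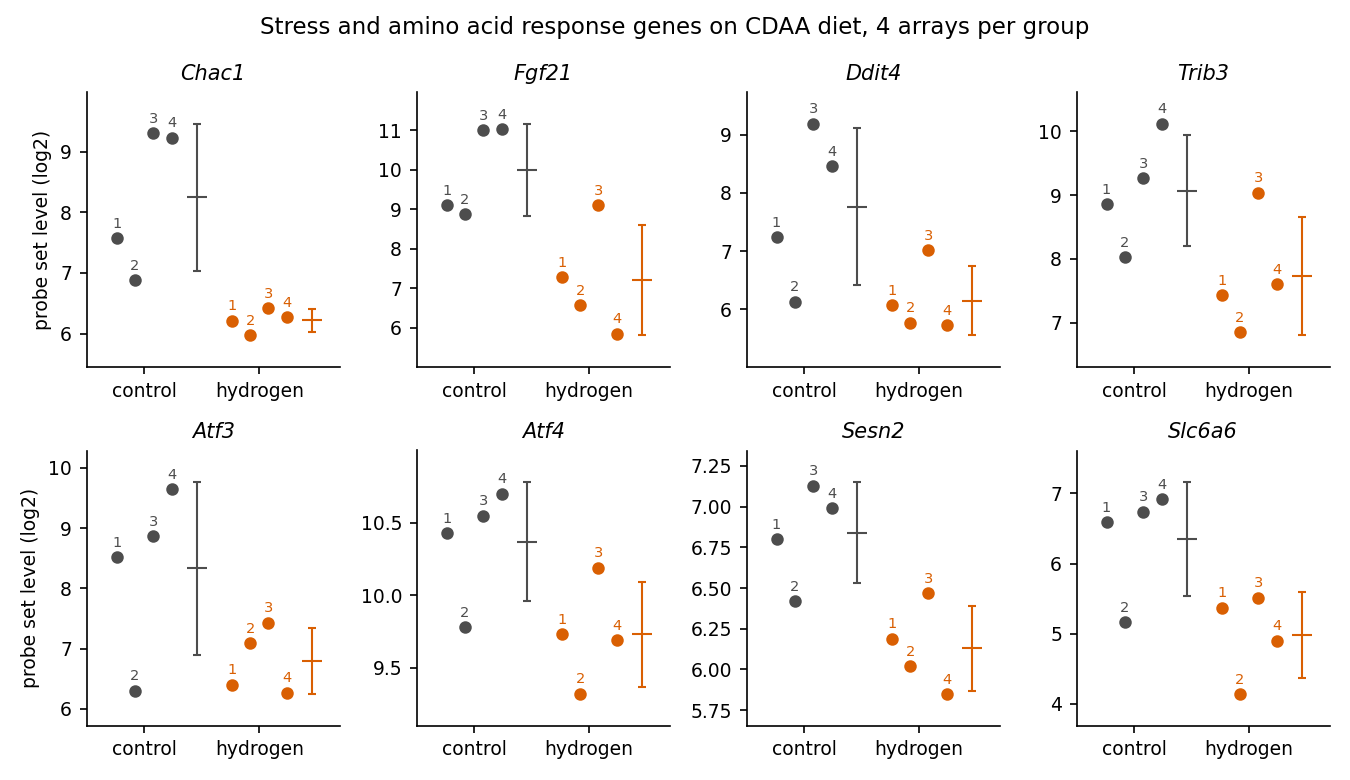
Level (log2, vertical axes) of 7 stress response genes and the taurine transporter gene Slc6a6 on each CDAA array, grey for control and orange for hydrogen, numbered by replicate, with group mean and SD. Means are lower with hydrogen in all 8, of which Sesn2 was called, and control arrays spread widely, from 6.88 to 9.3 for Chac1.

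Several of these genes carry the C/EBP-ATF response element (CARE, TGATGNAA on either strand), and 3 are shown because their differences were large. The stretches lie at chr3:126795934-126796001 on the plus strand for Chac1, chr1:105221482-105221549 on the minus strand for Fgf21 and chr3:161275534-161275584 on the minus strand for Trib3 (RefSeq, GRCr8). Capitals mark the element, which reads in the opposite direction in all 3.
Chac1, CARE: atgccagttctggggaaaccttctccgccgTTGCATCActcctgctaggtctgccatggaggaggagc
Fgf21, CARE: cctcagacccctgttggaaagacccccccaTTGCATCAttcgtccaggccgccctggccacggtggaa
Trib3, CARE: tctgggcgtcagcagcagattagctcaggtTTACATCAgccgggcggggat
The element was found in 4 of 18 stress list genes with a window, the fourth being Nupr1, and in 2 of 33 called genes, Irf3 and RGD1559600. It was found in 3.98% of all windows, a share of windows and not of genes.

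Lists next to the stress response gave few or no calls. None of 17 aminoacyl-tRNA synthetases was called, although 16 had a lower mean, beside 46.4% of all genes, with a median of -0.232. Of the 17, 9 were lower and 0 higher at an unadjusted p under 0.05, beside 12.6% of all genes in either direction. Aars1 and Rars1 had the smallest p-values (-0.25 and -0.23, adjusted p = 0.239 and 0.268). Endoplasmic reticulum chaperones had a lower mean in 19 of 22 and a median of -0.116, with Creld2 at -0.33 (adjusted p = 0.247) and Ero1a at 0.22 (0.249). The taurine transporter Slc6a6 read 6.59, 5.16, 6.74 and 6.92 in controls and 5.37, 4.14, 5.51 and 4.9 with hydrogen. Control array 2 lay within the hydrogen range, and the difference of -1.37 did not pass (adjusted p = 0.101) with all arrays and did without control array 2 (0.00185). Gldc, of mitochondrial glycine cleavage, differed by -0.66 (adjusted p = 0.0655) and Cth, of cysteine synthesis, by -0.41 (0.0901).

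No gene of the growth lists was called. Of 45 genes of DNA replication and mitosis 34 had a lower mean, beside 46.4% of all genes. At an unadjusted p under 0.05, 13 were lower and 1 higher, beside 12.6% of all genes in either direction. The median was -0.213. On the normal diet that median was -0.188. Plk1 and Ccnb1, which drive mitosis, differed by -0.3 and -0.67 (adjusted p = 0.205 and 0.301). None of 31 ribosome biogenesis genes was called, and their median was -0.183. A lower mean was found in 27 of them, beside 46.4% of all genes. Of the 31, 12 were lower and 0 higher at an unadjusted p under 0.05, beside 12.6% of all genes in either direction. Of the cell cycle regulators, Btg1 differed by -0.31 (adjusted p = 0.073) and the stress-induced Gadd45g by -1.61 (0.25). Rprm, a p53 target that arrests the cell cycle in G2, was in no list and fell most of all called genes. It read 6.17, 5.48, 6.13 and 5.57 in controls and 3.84, 4.52, 4.67 and 4.59 with hydrogen, with a difference of -1.43 ± 0.182 (adjusted p = 0.00223).

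Other called genes belonged to no group. Lgalsl, a galectin-like protein gene, read 7.54, 6.85, 7.62 and 7.45 against 6.11, 6.06, 6.54 and 6.24 (-1.13 ± 0.155, adjusted p = 0.00305). Tmcc3, a membrane protein gene, read 8.16, 7.86, 7.92 and 8.07 against 7.25, 7.15, 6.92 and 7.14 (-0.89 ± 0.099) and had the smallest adjusted p of the named genes, 0.00137. Dipk2a read 9.51, 9.39, 9.27 and 9.33 against 8.61, 8.25, 8.74 and 8.64 (-0.82, adjusted p = 0.00223), and Syne1, a nuclear envelope protein gene, 6.99, 7.28, 7.22 and 6.95 against 6.58, 6.6, 6.48 and 6.36 (-0.6, 0.00264). The mean over all Syne1 probe sets differed by -0.18 and did not pass (adjusted p = 0.152), and that over all Dipk2a probe sets differed by -0.36 and passed (0.0239). All 4 kept their groups apart and stayed called without any 1 array. C8h11orf65 rose by 0.42 (adjusted p = 0.0098). RGD1559600 rose by 0.95 (0.0098) and missed the threshold without control array 4 (0.0507).

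Of the smaller changes, Oplah, of glutathione breakdown, rose by 0.56, Cirbp, a cold-inducible RNA-binding protein gene, by 0.61, and the tight junction gene Cldn3 by 0.48 (adjusted p = 0.0283, 0.034 and 0.0474). Each was lost without at least 4 of the 8 arrays, with adjusted p-values up to 0.0982, 0.137 and 0.18. The mean of the Cirbp probe sets differed by 0.49 and did not pass (adjusted p = 0.066). Fbxw2 and Rusc2 rose by 0.31 and 0.51 (adjusted p = 0.0235 and 0.0278, up to 0.0829 and 0.114 without 1 array). Among genes that fell, Pnrc1, a nuclear receptor coactivator gene, changed by -0.69 and Gfer, of mitochondrial protein import, by -0.45 (adjusted p = 0.0235 and 0.0278, up to 0.1 and 0.105 without 1 array). Irf3, a switch of the antiviral interferon response, read 8.69, 8.67, 8.71 and 8.74 against 9.08, 8.99, 8.9 and 8.87. Its difference was small but the groups were tight (0.26 ± 0.0518, adjusted p = 0.04991), and the call was lost without any of control arrays 1, 3 and 4 or hydrogen arrays 1 to 3, with adjusted p-values up to 0.14. It was the only call in the interferon-stimulated list of 30 genes, whose median was -0.0238. As it stands there as a switch of the response and not as one of its targets, no target in the list was called. Also called, and each lost in at least 3 of the 8 fits without 1 array, were Capn1, Fzd8, Gpr146, Sirt4 and Stk25, which rose by 0.32 to 0.93, and Klhl7, Leo1, Mterf3 and Wdr91, which fell by 0.3 to 0.46. As the mean of its probe sets Wdr91 differed by -0.21 and did not pass (adjusted p = 0.0589).

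Hepatocyte markers were abundant in every liver. Alb stood at 13.72 in both groups and none of 9 hepatocyte markers was called, with summed linear levels of 62100 to 64500 in controls and 62600 to 63700 with hydrogen. Markers of other cells were not called either, in any of 12 cell type lists. Of 21 macrophage and Kupffer cell markers 20 had a higher mean with hydrogen, beside 53.1% of all genes, with a median of 0.22 and summed levels of 7320 to 9470 against 7980 to 11700. Of 15 stellate cell markers 13 were higher on average, with a median of 0.145 and sums of 1470 to 1780 against 1760 to 1960. Higher means were also found in 10 of 12 cholangiocyte and progenitor, 8 of 8 MHC class II and 9 of 11 endothelial markers. The counts were 9 of 14 for T and NK cells, 4 of 5 for B cells, 3 of 3 for neutrophils and 4 of 5 for erythroid cells. For adipocytes, exocrine pancreas and hepatocytes they were 2 of 4, 2 of 5 and 4 of 9. In whole liver, a change in the number of cells of a type and a change in RNA per cell cannot be told apart. The part of these cells in the called genes was not tested. The lists of collagens and matrix (36 measured, median 0.0075) and of chemokines and inflammation (33 measured, median 0.115) held no call. In the latter 24 had a higher mean, and 8 of them had an unadjusted p under 0.05, beside 12.6% of all genes at that p in either direction. No gene with a lower mean did. Col1a1 differed by -0.33 (adjusted p = 0.343). In all, 29 of 43 function lists were without a called gene.

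On the normal diet the same treatment gave fewer calls with equal weight on each array. There 2 probe sets passed (0.00884%), Wasf1, which was 0.83 higher with hydrogen, and a probe set without a gene name whose difference was -1.1. At an unadjusted p under 0.05 there were 1692. With array weights there were 46 calls on the normal diet and 54 on the CDAA diet. Neither of the 2 was called on the CDAA diet. The normal diet groups share no array with the CDAA groups. Of the 43 genes called on the CDAA diet 30 had the same sign on the normal diet and 13 the opposite, and the median size of the difference was 0.702 on the CDAA diet and 0.192 on the normal diet. These 43 were chosen by their difference on the CDAA diet, so a smaller size elsewhere is in part set by that choice. Dbp differed by 1.28 on the normal diet (adjusted p = 0.224), Lgalsl by -0.88 (0.101), Rprm by -0.74 (0.265), Npas2 by -0.66 (0.533) and Hsd17b2 by 0.47 (0.584). Fasn, Acot1 and Cpt1b had the opposite sign there, with 0.35, -0.19 and -0.22. For Acot1 the normal diet means, 3.36 in controls and 3.16 with hydrogen, were under the line of the filter on low values (3.68), so its sign there says little.

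The test of the difference between the effects of hydrogen on the 2 diets, the interaction, passed for 1 probe set (0.00442%), and 2066 had an unadjusted p under 0.05. That probe set has no gene name in the platform annotation. It read 7.93, 8.11, 8.02 and 8.09 in CDAA controls and 7.39, 7.37, 7.2 and 7.35 with hydrogen, without overlap and with the smallest adjusted p of all probe sets (-0.71 ± 0.0647, adjusted p = 0.000165). On the normal diet it read 8.33, 8.27, 8.37 and 8.14 against 8.23, 8.26, 8.17 and 8.32. The interaction was -0.68 (adjusted p = 0.0333). It was not called without control arrays 3 or 4 or hydrogen arrays 1, 2 or 4, each of which left 0 interaction calls. None of the 43 named genes reached an adjusted interaction p of 0.05, the lowest being 0.175, so the effect on them was not shown to differ between diets. For Fasn the interaction was -1.56 ± 0.317 (adjusted p = 0.179), for Acot1 2.07 ± 0.519 (0.288) and for Dbp 1.15 ± 0.426 (0.464). That of Acot1 is set against normal diet means under the line of the filter on low values.

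**Figure D5:**
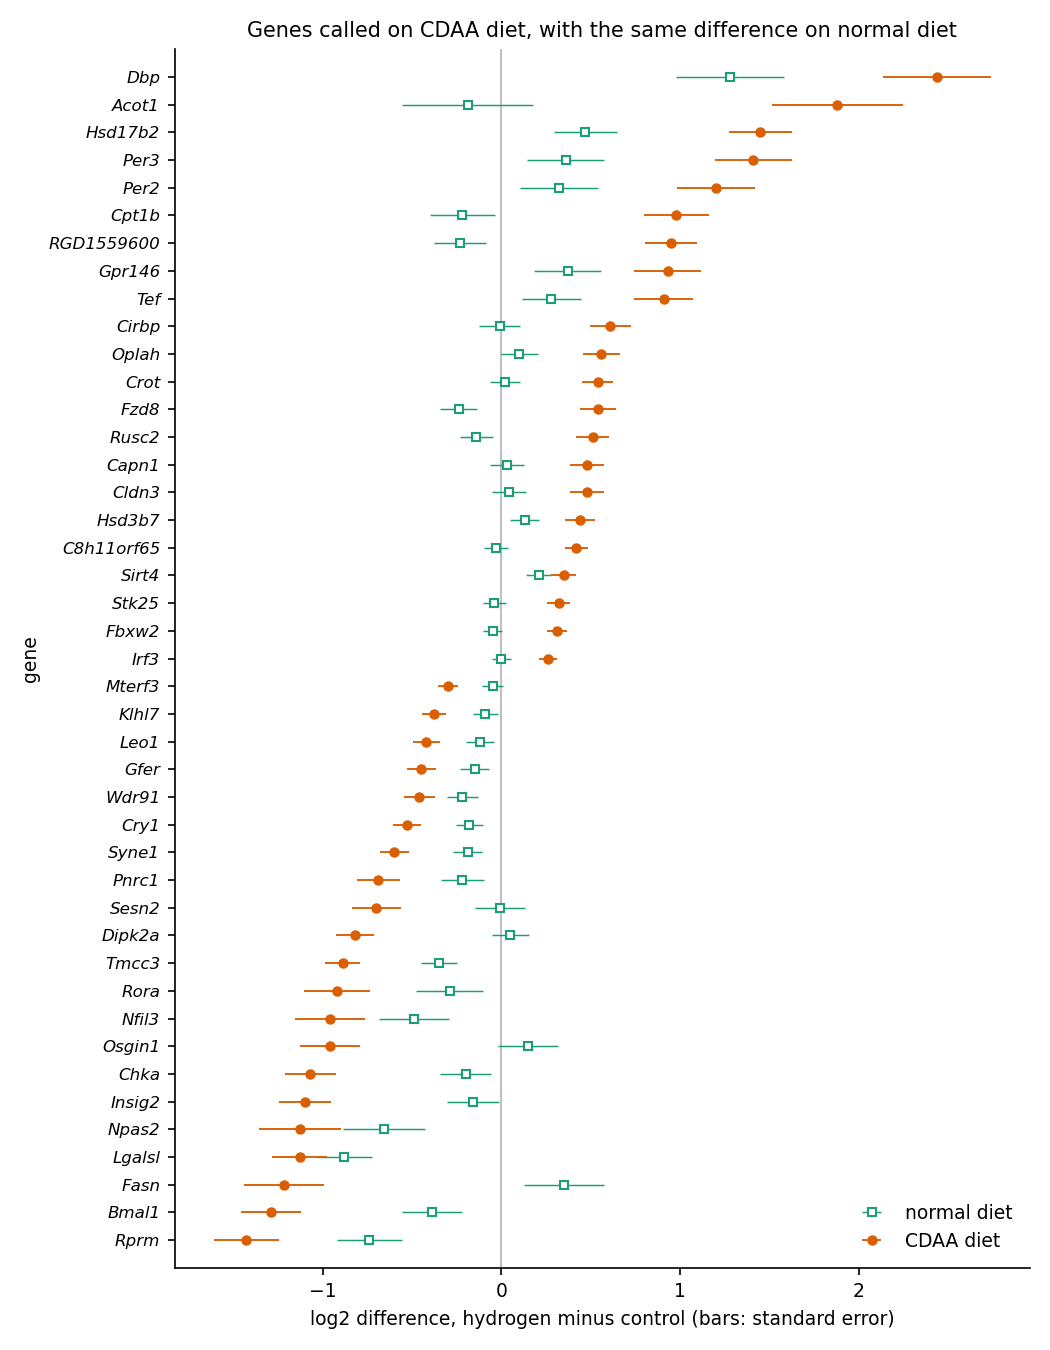
Difference between hydrogen and control livers (log2, horizontal axis, bars are standard errors) for the 43 genes called on the CDAA diet (orange circles), with the same difference on the normal diet (green squares). The differences are larger in size on the CDAA diet for all 43, which were chosen on it, and 30 have the same sign on the normal diet.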

How the data were processed

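The authors' deposited values are log2 expression levels per probe set of rat liver RNA on RG-230 PM array strips (31139 probe sets, 16 arrays). Per the submitters' processing notes they were made with RMA, a method that subtracts background, normalizes arrays to each other and summarises probes, in Affymetrix Expression Console. Versions and scan dates are not given in the sources used here, and normalization over all arrays hides any shift shared by all genes. Their number, 4 arrays per group, limits the precision.

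Control sets (97) were left out, as were 8408 probe sets not above 3.68, the 30th percentile of the rest, on at least 4 arrays. The filter passes genes through either group. The other 22634 were fitted with limma 3.58.1 in R 4.3.3, with 1 mean per group over all 16 arrays and eBayes. P-values are two-sided, adjusted by Benjamini-Hochberg over all 22634 and called at 0.05. Errors are standard errors of that fit, which takes the spread to be equal in all groups. On data simulated for this comparison with 200 changed probe sets of 22634, 89.5% of 1.5-fold and 98% of 2-fold changes were recovered. Called besides were 8 and 6 unchanged probe sets. The simulated noise was normal and independent between arrays, without the deviations that real arrays share. These shares therefore do not carry over to the real arrays. There, 8 genes had means at least 2-fold higher and 25 at least 2-fold lower with hydrogen, and 12 such genes were called.

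Names come from the platform annotation (19063 probe sets with 1 symbol, 572 with several, 11407 with none), of which 18983 matched a current RefSeq gene. A gene is represented by its kept probe set with the highest mean over all arrays, and genes whose probe sets are called in opposite directions would be left out (0 were). Summed marker levels add linear values of a list. The members and gene lists were chosen with earlier results of these data known. By rule, the text names the 12 called genes with the largest rise and the 12 with the largest fall whose groups do not overlap and that stay called without any 1 array, filled by smallest p, all clock list members, and up to 4 called or the 2 of smallest p of other lists. Other names were chosen after their values were seen. Promoter windows are RefSeq's, matched by symbol. Alternatives were the arrays in the fit, the filter, the scaling, array weights, a variance trend with robust eBayes, the replicate number as a block, the mean of a gene's probe sets, and each CDAA array, or control array 4 of the normal diet, left out. Leaving out control array 2 and hydrogen array 2 together was added after seeing the data. Figures were drawn with matplotlib 3.10.9.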

Additional observations from a re-analysis of the deposited data

Results flagged for a closer look

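Within groups of 4 arrays, single values stood apart from the other 3 by Dixon's test at the 95% level in 13 of 206 gene and group combinations, and chance alone flags about 1 in 20. For control array 2 these were Npas2 at 6.45 with the other controls from 7.48 to 7.69, Pnrc1 at 9.46 with the others from 9.89 to 9.92, Nampt at 7.79 with the others from 7.2 to 7.25, and Mgll, a lipase gene, at 7.33 with the others from 7.07 to 7.1. All 4 values of that array lay closer to the hydrogen mean than those of the other controls. Control array 3 stood apart for Cpt1a at 10.26, with the others from 10.96 to 11.05, and control array 1 for Cish at 5.39, with the others from 6.29 to 6.42. Cish, a growth hormone target, differed by -1.1 between groups (adjusted p = 0.366). Hydrogen array 3 stood apart for Crot at 10.78, Nfil3 at 5.55, Bhlhe40 at 6.01, Glrx at 9.17 and Il6r at 6.84, and hydrogen array 4 for Cry2 at 6.44 and Timp3 at 7.46. The high Crot and low Nfil3 values lay away from the control group. A probe set without a gene name is listed here because its effect of hydrogen differed between diets, with an interaction of -0.68.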

How the results depend on the processing

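The number of called probe sets on the CDAA diet was set more by single arrays than by scaling or filters: with 1 CDAA array, or control array 4 of the normal diet, left out it ran from 21 to 346 (higher 9 to 220, lower 12 to 126), against 71. With the 8 CDAA arrays alone it was 2 (0 higher, 2 lower), where the spread is estimated from fewer arrays, and with control array 2 and hydrogen array 2 both left out, an alternative chosen after seeing the data, it was 257 (166 higher, 91 lower). Among the fits without 1 array the lowest count was without control array 4 and the highest without control array 2. No filter, a stricter filter, quantile normalization again, median centring, array weights and a trended robust fit gave 54 to 71 calls, of which 48 to 68 were among the 71, with 26 called higher under array weights. Renewed scaling moved the median of all probe sets from 0.0075 to -0.0025 at most. The replicate numbers are those of the labels, and the deviations of same-numbered control and hydrogen arrays correlated at -0.0794, 0.265, 0.325 and 0.19. As 1 of the 4 pairs was not above 0.1, the numbers were not taken to pair the samples, although 6 of the 8 arrays correlated best with their own number in the other group, a hint from the data and not the design. The fit with the replicate number as a block gave 82 calls, 55 of them among the 71, and on the normal diet 1 and for the interaction 0. The block ended 10 of the 43 gene calls, those of Cpt1b, Rora, Nfil3, Acot1, Hsd3b7, Irf3, Klhl7, Wdr91, Sirt4 and Capn1 (adjusted p from 0.0508 to 0.0719). On the normal diet calls ran from 0 to 6 with 1 array left out, and were 1 with the stricter filter, 4 with median centring, 5 with the trended robust fit, 12 without both arrays 2, and 46 with array weights, where the cause was not tested. Interaction calls ran from 0 to 21 with 1 array left out, and were 3 with array weights and 9 without both arrays 2. Of the 14 genes called in each fit without 1 CDAA array, Syne1 was lost as the mean of its probe sets and all but Tmcc3 with the 8 CDAA arrays alone, and no other alternative run ended their calls. Of the 43 called genes, array weights ended 12 calls (Fasn and Per2 among them, adjusted p = 0.072 and 0.0679), median centring 10, the trended robust fit 9, no filter 8, quantile normalization 6, the mean of all probe sets 5, leaving out control array 4 of the normal diet 10, leaving out both arrays 2 of the CDAA groups 8, the 8 CDAA arrays alone 42 and the stricter filter 0, which left Sirt4 untested. No called gene changed sign under any alternative run. Reversals occurred in 6 uncalled clock list members, where the cause was not tested. With 1 array left out, Csnk1e ran from -0.12 to 0.03, Bhlhe40 from -0.18 to 0.35, Csnk1d from -0.02 to 0.06, Tfrc from -0.04 to 0.11, Gsk3b from -0.08 to 0.06 and Wee1 from -0.15 to 0.08. Csnk1d was 0 after quantile normalization, and as means of all probe sets Csnk1d was -0.08 and Csnk1e 0.04. With array weights Tfrc was -0.02 and Gsk3b 0.01, and without both arrays 2 Bhlhe40 was -0.03, Csnk1d -0.02 and Tfrc -0.09.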

Other observations

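Some hepatocyte genes outside the groups above had large differences that did not pass with all arrays. Nr1i3, the xenobiotic receptor CAR, read 6.88, 7.73, 7.14 and 7.15 in controls and 8.38, 8.28, 7.71 and 7.71 with hydrogen. Control array 2 lay within the hydrogen range, and the difference of 0.79 had an adjusted p of 0.087 (0.00804 without that array and 0.0483 without hydrogen array 4). The immediate early factor Klf6 read 9.08, 7.89, 9.25 and 9.49 against 8.07, 7.94, 7.98 and 7.92. Control array 2 was here below every hydrogen array, and the difference of -0.95 (adjusted p = 0.247) became -1.3 without it (0.0223). The interleukin 6 receptor gene Il6r differed by 0.72 (adjusted p = 0.149, and 0.0093 without control array 2). The tyrosine-degrading enzyme gene Tat differed by -1.38 (0.278), Pdk4, a brake on pyruvate oxidation, by -0.8 (0.136, and 0.0489 without hydrogen array 4) and the iron hormone gene Hamp by -0.72 (0.236, and 0.0159 without hydrogen array 3). These genes were chosen after their values were seen.

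Some groups showed no call and few nominal differences. Of 32 genes of the respiratory chain and ATP synthase 0 had an unadjusted p under 0.05, and the median was -0.0425. Of 34 proteasome subunits 1 did (median -0.0288), and of 20 apolipoprotein and VLDL assembly genes 2 did (median -0.0275). The differences were small but leaned lower, with a lower mean in 29 of 32, 23 of 34 and 12 of 20 genes, beside 46.4% of all genes. Timp3, an inhibitor of metalloproteinases, was called through a dimmer probe set (0.5, adjusted p = 0.0405) and differed by 0.35 on its brightest (0.16).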
